A study of Mus musculus with 6 samples.

Results

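The 10 genes described here are markers of the endothelial cells that line the blood vessels of the liver. They are Pecam1, Cdh5, Kdr, Flt1, Tek and Eng, which mark endothelium in general, and Stab2, Lyve1, Clec4g and Oit3, which mark the sinusoidal endothelium. They were chosen by gene name on the array, and all 22 of their probes were taken, out of 27376 gene names and 41174 probes that are not controls. The study used male BALB/c mice that were 6 weeks old at the start. In the treated group 3 mice drank water with 100 µg/L microcystin-LR (MC-LR) for 12 months, and in the control group 3 mice drank sterile water for the same time. This peptide toxin of cyanobacteria enters hepatocytes and blocks protein phosphatases. Each array, an Agilent array read in a single colour, held the whole-liver RNA of 1 mouse, so hepatocyte RNA makes up most of each sample and endothelial RNA a smaller part. The question, by the series title, is how liver expression differs after exposure to the toxin.

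Liver sinusoidal endothelial cells form a fenestrated wall between blood and hepatocytes. They clear waste macromolecules from the blood with scavenger receptors and lectins, and they depend on vascular endothelial growth factor (VEGF) made by the cells around them. Junction proteins hold endothelial cells together, and the receptors of VEGF, angiopoietin and bone morphogenetic protein 9 (BMP9) control their growth and stability. The hepatic endothelium is of interest in microcystin poisoning because severe acute doses cause haemorrhage into the liver.

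On each array 64.9% to 73.7% of the spots that are not controls were well above background, the scanner software's call that a spot is brighter than its surroundings, and 0 were saturated. Over all probes the arrays correlated pairwise at r = 0.982 to 0.993. Slide 1 carried controls 1 and 2. Slide 2 carried the 3 treated mice together with control 3, and no other slide mixed the groups. Control 3 also stood apart from the other controls in several cell type markers, given below. Independent mice were sampled, per the series' design text, and their number limits the precision.

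The probes that carry the results lie in known places of the mm9 build, as the scanner files give them. The Pecam1 probe and 1 of the Oit3 probes cover 1854 and 1191 bases of genome with 60 bases of sequence, so each crosses at least 1 intron and reads spliced RNA. They are shown because the Pecam1 probe gave the smallest p of all members and because both cannot pair in full with unspliced RNA. They lie on the minus strand at chr11:106542389-106544242 and chr10:58891099-58892289 and are written 5′ to 3′ in lower case, with no part marked.
Pecam1 probe: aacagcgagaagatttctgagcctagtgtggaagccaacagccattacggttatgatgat
Oit3 probe: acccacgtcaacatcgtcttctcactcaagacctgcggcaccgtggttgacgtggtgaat

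No exon or UTR annotation of mm9 was used here. The brightest probes of the other members lie at chr8:106668159-106668218 (Cdh5), chr5:76329309-76329368 (Kdr), chr5:148373791-148373850 (Flt1), chr4:94540861-94540919 (Tek) and chr2:32537310-32537369 (Eng). Those of the other sinusoidal genes lie at chr10:86304198-86304257 (Stab2), chr7:117994171-117994230 (Lyve1), chr8:3716182-3716241 (Clec4g) and chr10:58886254-58886313 (Oit3). Values below are the authors' quantile-normalized log2 signals, and a member's brightest probe is the one with the highest mean over the 6 arrays.

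All 10 markers were well above background on all 6 arrays by their brightest probe. In whole liver this shows that the markers were measurable, and markers of rarer cells, such as Epcam of cholangiocytes and Cd3e of T cells, were well above background on all 6 arrays too. The mean with MC-LR lay below that of the controls for 10 of 10 brightest probes, with a median log2 difference of -0.36 and a range of -0.54 to -0.11. None of the 17 member probes that were tested passed the threshold of an adjusted p under 0.05 (limma, Benjamini-Hochberg over all 28507 probes tested), where 0.0105% of all probes passed. At an unadjusted p under 0.05 by limma, 2 member probes were lower and 1 was higher, against 5.03% and 7.89% of all probes, or 12.9% in either direction. The higher one, a dim Clec4g probe, entered the test through the MC-LR arrays alone. In whole-liver RNA, fewer endothelial cells and less RNA per cell cannot be told apart.

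The count depended on which controls were used. Against controls 1 and 2 alone, 9 of 10 brightest probes were lower with MC-LR, with a median of -0.49. Against control 3, which shared a slide with the MC-LR arrays, 3 of 10 were lower and the median was 0.03. Control 3 itself lay below the mean of controls 1 and 2 for 7 of 10, with a median of -0.47, about as large as the difference between the MC-LR arrays and those controls. With control 3 as the only control on slide 2, mouse and slide cannot be told apart among the controls.

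Over all 22 member probes, dim ones included, 16 were lower and the median difference was -0.19. Over all 41174 probes that are not controls, dim ones included, the median was -0.016 and 53.0% were lower. Over all probes tested the median was 0.0024 and 49.6% were lower. Of the 16 member probes that were well above background on all 6 arrays, 15 were lower than the mean of the 3 controls, against 51.8% of all such probes on the array. Set against control 3 alone, 6 of these 16 were lower, against 46.2% of all such probes. The median over the 22 probes was -0.36 without MC-LR 3 and -0.095 without MC-LR 2. Only 2 member probes had all 3 MC-LR arrays below all 3 controls, those of Pecam1 and Cdh5, where 8.54% of all probes tested had this order. A dim probe of Clec4g, tested through the MC-LR group alone, had the opposite order, as did 11.7% of all probes. In total 3 member probes and 20.3% of all probes had groups that did not overlap.

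**Figure D1:**
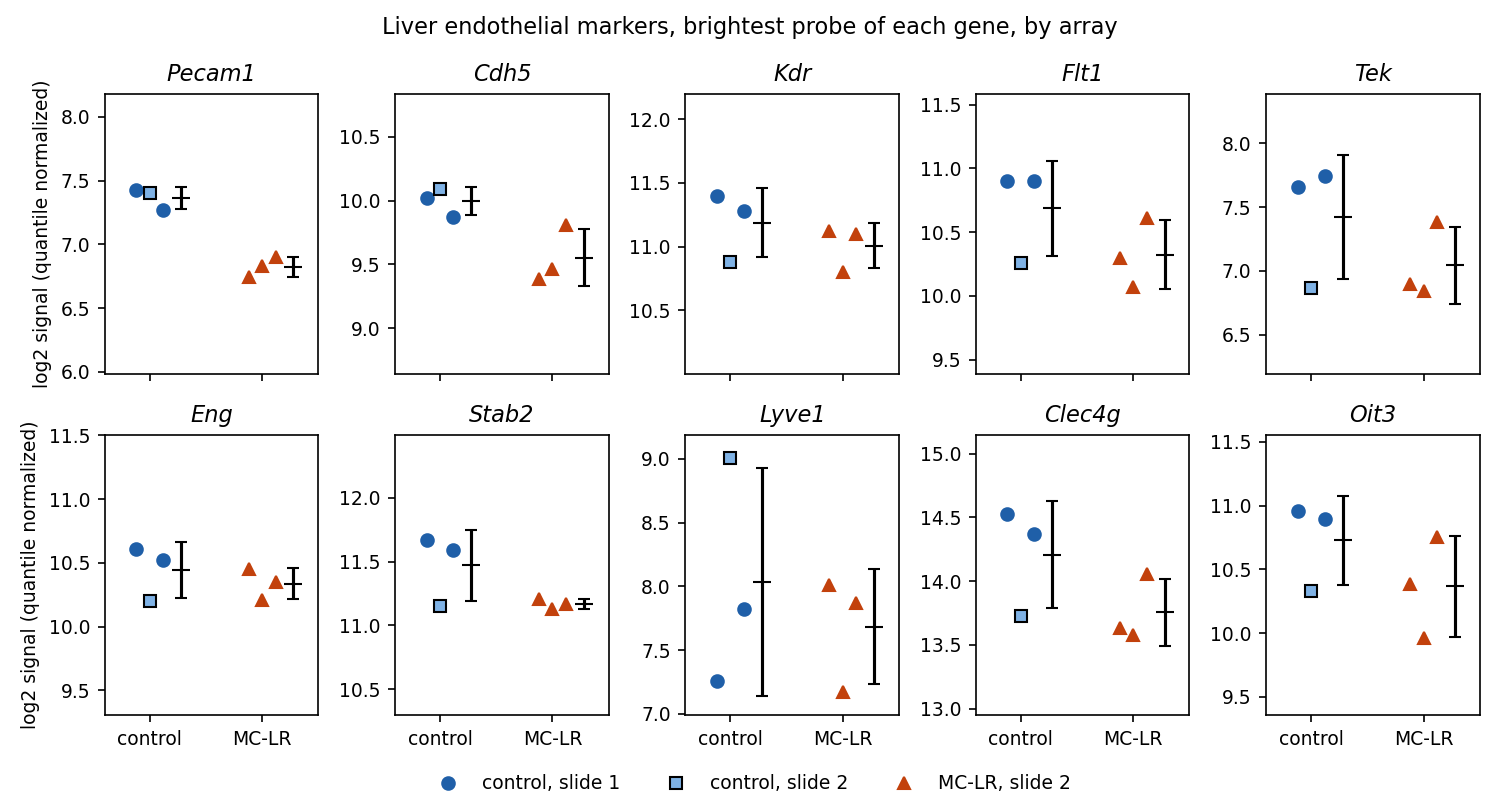
Log2 signal of the brightest probe of each of the 10 markers on each array, with controls of slide 1 as circles, the control of slide 2 as a square and the MC-LR arrays as triangles. The vertical scale covers the same number of log2 units in every panel, black bars are the group mean ± SD (n = 3), and the groups are apart for Pecam1 and Cdh5, while in the panels of Kdr, Flt1, Tek, Eng, Stab2, Clec4g and Oit3 control 3 lies below both other controls.

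Pecam1 and Cdh5 encode adhesion proteins of the endothelial junction. Pecam1 (CD31) binds itself between neighbouring endothelial cells and is also carried by platelets and leukocytes. Its main probe, printed 10 times on each array and averaged, stood at 7.43, 7.27 and 7.40 in controls 1, 2 and 3 and at 6.74, 6.83 and 6.90 in the MC-LR arrays 1, 2 and 3. The groups did not overlap, and the highest MC-LR array lay below the lowest control. The difference was -0.54 ± 0.10 (log2, SE), or 1.45-fold lower, and it did not pass (limma, adjusted p = 0.216, range over the alternatives 0.0371 to 0.659). The difference was nearly the same against controls 1 and 2 (-0.52) and against control 3 (-0.58, adjusted p = 0.196 with slide as a block, limma, a fit in which 0.0456% of all probes passed). Under normexp, another background correction, the difference was smaller, at -0.32. It passed with array weights alone (adjusted p = 0.0371, limma), a setting in which 4.22% of all probes passed. A further Pecam1 probe lies inside the intron-spanning stretch of the main probe, at chr11:106543058-106543117, and was called above background on 0 of 6 arrays.

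Cdh5 encodes VE-cadherin, the endothelial cadherin that seals the junction. Its brighter probe stood at 10.02, 9.88 and 10.10 in the controls and at 9.39, 9.47 and 9.81 with MC-LR. These groups were apart as well, though MC-LR 3 came within 0.1 of control 2. The difference was -0.44 ± 0.14 (log2, SE; limma, adjusted p = 0.316), or 1.36-fold lower, with -0.40 against controls 1 and 2 and -0.54 against control 3. The dimmer probe of Cdh5, 660 bases away, stood at 7.42, 6.86 and 7.03 against 6.79, 6.85 and 7.10. There the groups overlapped and the difference was -0.20 ± 0.18 (SE), so the pair of probes agreed in direction and differed in size. Under normexp the dimmer probe stood at -0.089.

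Kdr and Flt1 encode the VEGF receptors 2 and 1. Kdr is the main signalling receptor of the endothelium for VEGF-A. Its bright probe, also printed 10 times, stood at 11.40, 11.28 and 10.88 in the controls and at 11.12, 10.80 and 11.10 with MC-LR. Control 3 was the lowest control and lay among the MC-LR arrays. The difference was -0.18 ± 0.17 (log2, SE; limma, adjusted p = 0.689), and it turned to 0.13 against control 3. A further Kdr probe, assigned to another transcript 28330 bases away, was called above background on 0 of 6 arrays.

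Flt1 binds VEGF tightly with weaker signalling of its own, and is known to have shorter transcripts that encode a soluble receptor. Its brightest probe stood at 10.90, 10.90 and 10.26 in the controls and at 10.29, 10.07 and 10.61 with MC-LR. The groups overlapped through control 3 and MC-LR 3. The difference was -0.36 ± 0.23 (log2, SE; limma, adjusted p = 0.544), with -0.58 against controls 1 and 2 and 0.07 against control 3. A neighbouring probe of the same transcript had the same order of arrays, with control 3 at 7.92 below the others at 8.40 and 8.41, and a difference of -0.26 ± 0.21 (SE), or -0.17 under normexp. A probe assigned to a different Flt1 transcript, 75990 bases away, did not follow that order. It stood at 7.71, 7.66 and 7.71 in the controls, which differed by less than 0.1, and at 7.31, 7.22 and 8.06 with MC-LR (difference -0.16 ± 0.23, SE). Of the remaining 2 Flt1 probes, 1 was called above background on 0 of 6 arrays and the other on 1 control and 2 MC-LR arrays.

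Tek encodes TIE2, the receptor for angiopoietins, which keeps vessels quiescent. Its brightest probe stood at 7.66, 7.74 and 6.86 in the controls and at 6.90, 6.84 and 7.39 with MC-LR. Control 3 lay at the level of MC-LR 1 and 2, and the difference of -0.38 ± 0.28 (log2, SE; limma, adjusted p = 0.597) became 0.18 against control 3. The other Tek probe, 132374 bases away, had a difference of -0.16 ± 0.19 (SE), and again control 3, at 6.77, was the lowest control. Under normexp the differences of the Tek probes were -0.22 and -0.067.

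Eng encodes endoglin, a co-receptor for BMP9 and TGF-beta on endothelium. It stood at 10.61, 10.52 and 10.20 in the controls and at 10.45, 10.21 and 10.35 with MC-LR. Every MC-LR array lay between control 3 and control 2. The difference of -0.11 ± 0.14 (log2, SE; limma, adjusted p = 0.781) was the smallest of the 10 brightest probes.

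Stab2 and Lyve1 both bind hyaluronan, and they varied in opposite ways among the controls. Stab2 encodes stabilin-2, the scavenger receptor by which sinusoidal endothelium clears hyaluronan from the blood. It stood at 11.67, 11.59 and 11.15 in the controls and at 11.21, 11.13 and 11.16 with MC-LR. The MC-LR arrays lay within 0.1 of each other, and control 3 lay among them. The difference was -0.30 ± 0.16 (log2, SE; limma, adjusted p = 0.464) against all controls, -0.46 against controls 1 and 2 and 0.02 against control 3.

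Lyve1 encodes a hyaluronan receptor of lymphatic vessels and sinusoids that some macrophages also carry. Its brighter probe stood at 7.26, 7.82 and 9.01 in the controls and at 8.01, 7.17 and 7.87 with MC-LR. Control 3 was the highest of the 6 arrays, and the other controls spanned nearly the range of the MC-LR arrays. The control SD of 0.89 was the largest among the brightest probes of the 10 markers, and the difference of -0.35 ± 0.47 (SE; limma, adjusted p = 0.786) was smaller than it. The dimmer probe of Lyve1 showed control 3 highest too, at 6.48 against 4.10 and 4.69 in controls 1 and 2, and 5.46, 4.73 and 5.53 with MC-LR. Its difference was 0.15 ± 0.62 (SE), opposite in sign to that of the brighter probe, and it was -0.0071 under normexp. Against control 3 the differences were -1.33 and -1.24, and with slide as a block neither passed (limma, adjusted p = 0.252 and adjusted p = 0.269, ranges over the alternatives 0.252 to 0.959 and 0.225 to 0.998).

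Clec4g encodes LSECtin, a C-type lectin of sinusoidal endothelium. Its bright probe stood at 14.52, 14.37 and 13.73 in the controls and at 13.64, 13.58 and 14.06 with MC-LR. As for Stab2, control 3 lay among the MC-LR arrays. The difference was -0.45 ± 0.25 (log2, SE; limma, adjusted p = 0.489), with -0.69 against controls 1 and 2 and 0.03 against control 3. A dim probe that the design assigns to another Clec4g transcript, 8963 bases away, stood at 4.34, 4.32 and 4.62 against 4.93, 4.68 and 5.10, the opposite order. It was well above background on 2 controls and all 3 MC-LR arrays. It therefore entered the test through the MC-LR group alone, where it was higher, and the filter favours that direction. Its difference of 0.47 ± 0.15 (SE) did not pass (limma, adjusted p = 0.310), and under normexp background correction the difference was 0.13. The last Clec4g probe was called above background on 0 of 6 arrays.

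Oit3 encodes a secreted protein with a zona pellucida domain whose transcript is enriched in sinusoidal endothelium. Its brightest probe stood at 10.95, 10.90 and 10.33 in the controls and at 10.39, 9.96 and 10.75 with MC-LR. The intron-spanning probe shown above stood at 6.13, 6.26 and 5.50 against 5.53, 5.09 and 6.06. Both probes put controls 1 and 2 and MC-LR 3 above control 3 and MC-LR 1 and 2. The differences were -0.36 ± 0.26 and -0.40 ± 0.31 (log2, SE; limma, adjusted p = 0.591 and adjusted p = 0.610), and 0.04 and 0.06 against control 3. Under normexp the difference of the intron-spanning probe was -0.13.

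**Figure D2:**
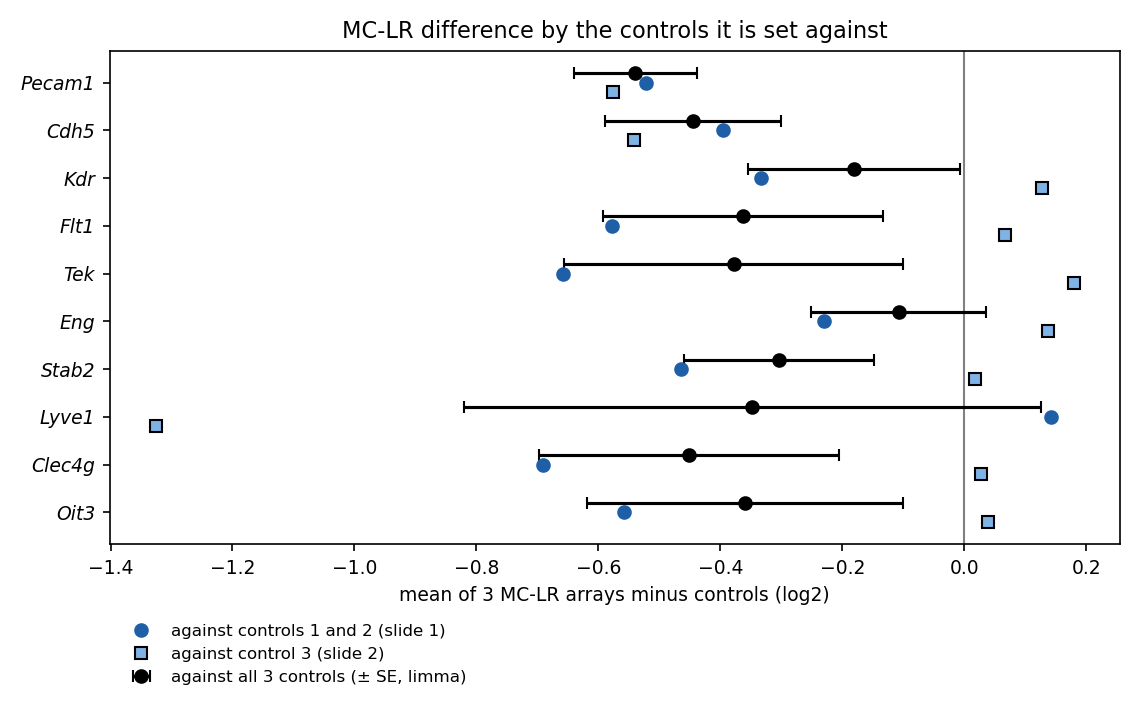
Log2 difference between the mean of the 3 MC-LR arrays and the controls for the brightest probe of each marker, against all 3 controls (black, ± SE from limma), against controls 1 and 2 on slide 1 (circles) and against control 3 on slide 2 (squares). For Pecam1 and Cdh5 all 3 values lie between -0.58 and -0.40, for 7 markers the square lies above 0, and for Lyve1 it lies at -1.33.

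Among the arrays, MC-LR 2 was the lowest for 7 of the 10 brightest probes and MC-LR 1 for 2. Control 1 was the highest for 6, control 2 for 2 and control 3 for 2. After each gene's mean was subtracted, the median over the 10 markers was 0.34 in control 1, 0.23 in control 2 and -0.20 in control 3. It was -0.18, -0.35 and 0.02 in the MC-LR arrays 1, 2 and 3. Added up on the linear scale, the 10 brightest probes gave a signal of 23317 to 36534 in the controls and 20558.5 to 27555 with MC-LR, ranges that overlap. This sum follows Clec4g most, at 13.6 to 14.5 (log2) over the arrays, with Stab2 next at 11.1 to 11.7. The summed signals of other cell types, given below, likewise weigh their brightest genes most.

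Promoter sequence was at hand for 6 of the 10 markers (Eng, Tek, Kdr, Flt1, Clec4g and Stab2), the 250 bases before the transcript start in RefSeq's GRCm38.p6 annotation. These were the members with an entry. In each of them the brightest probe was lower in control 3 than in controls 1 and 2, as it was in Oit3. Searched on both strands, CAGGAA, a core recognised by ETS factors such as ERG and FLI1, was found in 3 of the 6, in Stab2 and Clec4g at 1 position each and in Tek at 2. It was found in 25.7% of 32851 promoter windows of the same length. CCGGAA, another ETS core, was found in Kdr alone and in 12.0% of all windows. AGATAA, the core that factors of the GATA4 family recognise, and GTAAACA, a forkhead core, were in none of the 6 and in 9.99% and 3.17% of all windows. Other sequences that ETS factors can bind were not searched. Shown here are the sinusoidal genes Stab2 at chr10:87007943-87008192 and Clec4g at chr8:3720652-3720901, both on the minus strand, with CAGGAA in capitals. Also shown is Eng at chr2:32646345-32646594 on the plus strand, a window without a match to the cores searched.
Stab2: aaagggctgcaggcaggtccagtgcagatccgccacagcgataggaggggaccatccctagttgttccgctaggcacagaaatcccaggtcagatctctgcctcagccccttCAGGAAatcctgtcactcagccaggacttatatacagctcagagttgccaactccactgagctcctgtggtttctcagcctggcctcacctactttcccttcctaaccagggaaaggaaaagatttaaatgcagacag
Clec4g: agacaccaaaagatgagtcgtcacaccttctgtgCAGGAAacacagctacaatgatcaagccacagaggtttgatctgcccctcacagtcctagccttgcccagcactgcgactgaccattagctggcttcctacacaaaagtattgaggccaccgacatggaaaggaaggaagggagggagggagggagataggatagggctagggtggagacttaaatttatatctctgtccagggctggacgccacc
Eng: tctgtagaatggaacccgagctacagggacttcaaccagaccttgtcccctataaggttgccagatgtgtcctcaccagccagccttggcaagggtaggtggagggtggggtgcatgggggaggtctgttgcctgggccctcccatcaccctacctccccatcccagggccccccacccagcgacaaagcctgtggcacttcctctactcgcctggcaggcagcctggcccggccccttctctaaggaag

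Other endothelial genes were read from fixed lists, with 1 probe per gene symbol, and 0 of their probes passed (limma). Of 20 further surface and junction genes of endothelium, 16 were lower with MC-LR and the median difference was -0.19, while against control 3 11 of 20 were lower with a median of -0.05. In 4 of the 20 all MC-LR arrays lay below all controls, where 8.54% of all probes tested had this order. Those with the smallest p, none of which passed, were Icam2, an adhesion ligand of leukocytes, at -0.32 ± 0.10, Robo4, a vessel-stabilising receptor, at -0.36 ± 0.13, and Emcn, an endothelial sialomucin, at -0.38 ± 0.14 (log2, SE; limma, adjusted p = 0.313, adjusted p = 0.346 and adjusted p = 0.356). These 3 were chosen by their p and are among those 4, and against control 3 they stood at -0.29, -0.23 and -0.25.

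Transcription factors of the endothelium were lower for 12 of 16, with a median of -0.21 (-0.05 against control 3). In 4 of the 16 all MC-LR arrays lay below all controls, against 8.54% of all probes tested. The smallest p values belonged to Fli1, an ETS factor, at -0.33 ± 0.13, Maf, a factor of sinusoidal identity, at -0.22 ± 0.10, and Ets1 at -0.27 ± 0.13 (log2, SE), and none passed (limma, adjusted p = 0.381, adjusted p = 0.408 and adjusted p = 0.431). Fli1, Maf and Ets1 stood at -0.57, -0.29 and -0.42 against control 3, and at -0.21, -0.19 and -0.19 against controls 1 and 2. Fli1 and Ets1 are also expressed by blood cells. Scavenger and angiocrine genes of sinusoidal endothelium were lower for 15 of 18, with a median of -0.14 that became 0.07 against control 3. Bmp6, the endothelial signal that raises hepcidin in hepatocytes, was among the 3 that were higher, at 0.49 ± 0.20, while Gpr182, a chemokine-scavenging receptor, stood at -0.41 ± 0.25 and Ctsl, a lysosomal protease, at -0.20 ± 0.14 (log2, SE). Under normexp Bmp6 stood at 0.29. None of these passed (limma, adjusted p = 0.380, adjusted p = 0.532 and adjusted p = 0.588).

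Of 14 VEGF ligands, further receptors and early targets, 3 were lower with MC-LR, 11 were higher and the median was 0.11 (0.09 against control 3), with 0 passing (limma). Vegfa, the main ligand of Kdr and Flt1, which hepatocytes make, stood at 11.93, 12.13 and 11.90 in the controls and at 12.62, 12.31 and 12.46 with MC-LR. Its groups were apart and the difference was 0.48 ± 0.13 (log2, SE), without passing (limma, adjusted p = 0.267). In 4 of the 14 genes all MC-LR arrays lay above all controls, as in 11.7% of all probes tested, and in 1 they lay below. Plcg1, the phospholipase that Kdr activates, stood at 0.43 ± 0.13 and Vegfc, a ligand of lymphatic growth, at -0.25 ± 0.12 (log2 difference, SE; limma, adjusted p = 0.300 and adjusted p = 0.431). The other ligands Vegfb and Vegfd stood at 0.09 and 0.03.

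Of 7 genes of angiopoietin and TIE signalling, 5 were lower with a median of -0.20. Against controls 1 and 2, 3 of 7 were lower with a median of 0.0071, and against control 3, 4 of 7 with -0.37. Foxo1, a factor that TIE2 signalling restrains, stood at 0.32, Tnip2 at -0.30 and Tie1, the partner of TIE2, at 0.18 (0.11 under normexp). Of 15 genes around endoglin, 6 were lower with a median of 0.03. There Bmp10, a circulating ligand of the endoglin receptor complex, stood at 0.50 ± 0.12, Id1, a target of that complex, at 0.57 ± 0.30, and Smad7, a feedback inhibitor, at 0.36 ± 0.22 (log2 difference, SE; limma, adjusted p = 0.248, adjusted p = 0.476 and adjusted p = 0.522). Bmp10 stood at 0.15 under normexp, and Id1 at 0.86 against controls 1 and 2 but at 0.0036 against control 3. Of 11 gene symbols for partners of VE-cadherin, 6 were lower with a median of -0.06. In 4 of the 11 all MC-LR arrays lay below all controls and in 3 above, against 8.54% and 11.7% of all probes tested. Afadin was counted there under both Afdn (-0.22) and its older name Mllt4 (-0.18), each with its own probe. Plekha7 (0.59), Jup, which encodes plakoglobin (0.36), and Afdn had the smallest p without passing. Under normexp Plekha7 and Jup stood at 0.18 and 0.17. Among 6 measured genes of hyaluronan turnover 4 were lower, with a median of -0.10, Cemip2, a hyaluronidase of the cell surface, at -0.42, Hyal1, a lysosomal hyaluronidase, at 0.53, and Cd44, a hyaluronan receptor, at -0.37. Against controls 1 and 2 Hyal1 stood at 0.30 and Cd44 at 0.021, and against control 3 at 1.01 and -1.15.

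Markers of other cells also differed between the arrays. MC-LR 1 was low in Kupffer cell markers (-0.55 after subtraction of each gene's mean), MC-LR 2 high and MC-LR 3 low in cholangiocyte markers (0.67 and -0.53) and control 2 high in platelet and red cell markers (0.49), and control 3 differed from the other controls in several lists. Kupffer cell and macrophage markers, all 11 of those with a probe measured, were above the other controls in control 3 for 10 of 11, by a median of 0.66 (log2). Leukocyte markers were higher there for 10 of 11, by a median of 0.85, cholangiocyte markers for 6 of 7, by 1.01, and stellate cell and fibroblast markers for 11 of 12, by 0.49. Of 9 hepatocyte markers 6 were lower in control 3, by a median of -0.21. Alb stood between 18.0 and 18.2 on every array. Quantile normalization gives the brightest probes like values on all arrays, so this range cannot show a stable hepatocyte level. The part of these shifts in the endothelial values was not tested.

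**Figure D3:**
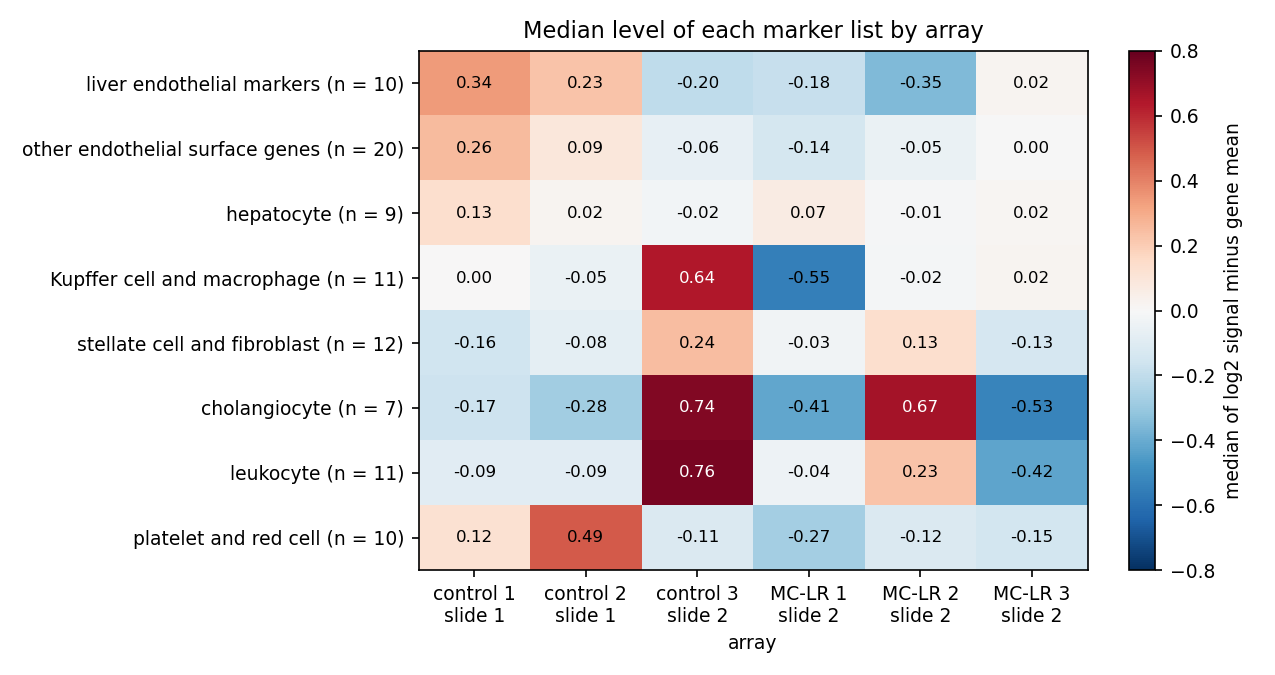
Median log2 signal over the genes of each marker list on each array, after subtraction of each gene's mean over the 6 arrays, with 1 probe per gene and the number of genes in brackets. The liver endothelial markers stand at 0.34 and 0.23 in controls 1 and 2 and at -0.20 in control 3, where the Kupffer cell, cholangiocyte and leukocyte lists stand at 0.64, 0.74 and 0.76.

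Between the groups, 11 of 11 Kupffer cell and macrophage markers were lower with MC-LR (median -0.32, with 0 passing by limma). Against controls 1 and 2 it was 8 of 11 with a median of -0.17, and against control 3 it was 11 of 11 with -0.82. Their summed linear signal was 49950 to 80967 in the controls and 35558 to 57167 with MC-LR. Folr2 stood at -0.57 ± 0.26 and C1qa at -0.47 ± 0.28 (log2 difference, SE; limma, adjusted p = 0.427 and adjusted p = 0.518). This list bears on Lyve1, which macrophages can carry, and its part in the Lyve1 values was not tested. Platelet and red cell markers were lower for 8 of 10 measured of 12 with a probe, with a median of -0.51, or 0.01 against control 3, and a summed signal of 107273 to 203211 against 97325.5 to 118845. Gp9, a platelet glycoprotein, stood at -0.87 ± 0.19 and Klf1, an erythroid factor, at 1.02 ± 0.30 (limma, adjusted p = 0.240 and adjusted p = 0.293), and under normexp at -0.35 and 0.58. The platelet genes Gp9, Ppbp and Pf4 stood at -0.98, -1.31 and -0.73 against control 3. They stood at -0.82, -0.93 and -0.38 against controls 1 and 2. The other platelet genes, Gp1bb and Itga2b, stood at 0.079 and -0.081 against control 3. Itga2b stood at 0.31 against controls 1 and 2, where Gp1bb was lower. The haemoglobin genes Hba-a1 and Hbb-b1 stood at -0.037 and 0.067 against control 3. The summed signal follows Hbb-b1 most, at 15.6 to 16.9 (log2) over the arrays. Leukocyte markers were lower for 7 of 11 (median -0.16), and the direction of this median rested on control 3. The genes named below, S100a9 and S100a8, were lower against controls 1 and 2 too, at -0.76 and -0.48, and stood at -1.33 each against control 3. Against controls 1 and 2, 5 of 11 were lower with a median of 0.063, and against control 3, 10 of 11 with -0.70. The summed signal was 11471 to 21317 against 7089 to 14746, with S100a9 at -0.95 ± 0.41 and S100a8 at -0.76 ± 0.42 (log2 difference, SE; limma, adjusted p = 0.405 and adjusted p = 0.494). Platelets and leukocytes also carry Pecam1, and the part of these cells in its difference was not tested.

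In the other lists, cholangiocyte markers had a median difference of -0.13 with 5 of 7 lower, led by Sox9 at -0.73 and Tspan8 at -0.99, and a summed signal of 7097 to 13619 in controls against 4544 to 11683. Against controls 1 and 2 their median was 0.21 with 3 of 7 lower, and against control 3 it was -0.79 with 7 of 7 lower. Sox9 and Tspan8 stood at -0.76 and -0.70 against controls 1 and 2, and at -0.67 and -1.58 against control 3. Tspan8 stood at -0.48 under normexp. Stellate cell and fibroblast markers had a median of -0.05 with 8 of 12 lower, with Lrat, which stores retinol in stellate cells, at 0.95 and Hand2 at 0.55, and a summed signal of 76501 to 92618 against 73553 to 88792. Against controls 1 and 2 their median was 0.095 with 3 of 12 lower, and against control 3 it was -0.23 with 8 of 12 lower. Lrat stood at 0.20 against control 3 and at 1.32 against the others, and Hand2 at 0.16 against control 3 and at 0.22 under normexp. Hepatocyte markers had a median of 0.01 with 4 of 9 lower, with Fgb at -0.50 and Hpd at 0.33, and 0 of these 3 lists' probes passed (limma).

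The genes whose pattern over the 6 arrays was most like the mean of the 10 markers were no endothelial markers. By Pearson correlation over 6 arrays they were Trmt10a, a tRNA methyltransferase (r = 0.995), Tmed7, of the secretory pathway (r = 0.993), Tmod2, an actin-capping tropomodulin (r = 0.993), Crem, a cyclic AMP-responsive factor (r = 0.992), Chst7, a sulfotransferase (r = 0.991), and Acbd3, a Golgi protein (r = 0.991). They are the highest of 22195 probes ranked, share the arrays and their normalization with the markers, and differed between the groups by -0.46 (Crem) to -0.10 (Tmed7) without passing (limma, adjusted p = 0.355 to adjusted p = 0.661). Lyve1, at 1.15 in control 3 after subtraction of its gene mean, raised the mean used for this ranking. The median over the 10 markers was -0.20 in that array.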

How the data were processed

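Livers of 3 control and 3 MC-LR mice were measured on 6 arrays. The scanner files hold spot intensity, extracted with Agilent Feature Extraction (version 10.7, per the submitters' processing notes). The deposited table holds log2 values that the authors quantile normalized in GeneSpring, per the series' design text. It followed the logged scanner signal of each array, at r = 0.998 after rounding in the lowest array, and was used as deposited, by probe name.

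A probe counted as well above background on an array if at least 50% of its spots were, and was tested if this held on all 3 arrays of a group. Group means were compared per probe by limma (version 3.58.1, R 4.3.3, two-sided) without covariates, and p-values were Benjamini-Hochberg adjusted over all 28507 probes, at a threshold of 0.05. The fit was tested on simulated data.

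All 10 members are named with every probe. For other lists, the 3 genes with the smallest p (2 for other cell types) are named, by their brightest tested probe. Members and lists were chosen with earlier results of these data known. Alternatives covered other normalizations (own quantile, 75th percentile, normexp with offset 50), filters, slide and replicate number as blocks, slide 2 alone, other variance settings, array weights and each array left out.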

Additional observations from a re-analysis of the deposited data

How the results depend on the processing

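Of 288 combinations of a tested member probe and a setting, 259 kept the direction and the side of the threshold, 28 turned in sign and 1 came to pass. The 1 that passed was Pecam1 with array weights (log2 difference -0.58), where 1 member probe and 3 probes of the endothelial lists passed by limma against 0 of each otherwise, and 1203 probes on the whole array against 3. With slide as a fixed block, and equally within slide 2 alone, both of which set the MC-LR arrays against control 3 by construction, the median over the 22 member probes became 0.053, and 3 of 10 brightest probes were lower in slide 2 alone. In both settings the difference became 0.13 for Kdr, 0.066 and 0.058 for 2 Flt1 probes, 0.18 and 0.11 for Tek, 0.14 for Eng, 0.017 for Stab2, 0.028 for Clec4g, 0.039 and 0.061 for Oit3 and -1.24 for the dimmer Lyve1 probe. That probe also turned under normexp (-0.0071), with slide as a random block (-0.39) and without control 1 (-0.34) or control 2 (-0.050). The brighter Lyve1 probe turned without control 3 (0.14) and with array weights (0.20). When each array was left out in turn, the brighter probe ranged from -0.73 to 0.14 and the dimmer from -0.34 to 0.85. The median over the 22 probes was -0.36 to -0.095 when each array was left out in turn, and the number of brightest probes that were lower was 9 to 10. Neither the tested Pecam1 probe nor the 2 Cdh5 probes turned in sign in any setting run. Of the 17 member probes tested, 12 turned in at least 1 setting. The Flt1 probe of the different transcript (-0.43 to -0.0089) and the dim Clec4g probe, which was higher with MC-LR (0.13 to 0.59), did not turn either. Deviations of same-numbered arrays correlated at 0.219, -0.357 and -0.176, values of mixed sign. With 3 arrays per group and control 3 on another slide than controls 1 and 2, they cannot decide whether the replicate numbers pair the mice. With the replicate block the median was -0.19, and 0 member probes passed (limma). Probes that were not well above background, 5 of the 22 untested, give no level.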
